A study of Mus musculus with 4 samples.

Results

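Chemokines are small secreted proteins that draw cells along a gradient by binding receptors on their surface. The 8 chemokine genes Cxcl17, Cxcl13, Cxcl12, Ccl5, Ccl6, Ccl21a, Cxcl1 and Ccl2 were followed through the cell classes of the mouse ventral prostate by single-cell RNA sequencing. They were chosen with earlier results of these data known. Taken by their symbols, they are 8 of the 17896 genes in the 4 count tables. Of these, 8 and 7 were listed for te2 and 8 and 6 for sham. Ccl2 was missing from the table of te2 replicate 2, and Cxcl1 and Ccl2 from that of sham replicate 2. A missing gene was entered as 0.

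The groups were 2 te2 mice and 2 sham mice, all of the strain C57BL6j with the genotype wt. They received pellets and the tissue was taken 2 weeks later. The labels do not say what te2 stands for, and the series is described as one on an imbalance of steroid hormones. Both lobes of 1 animal went into 1 tube, and each library is 1 animal, so replicates are separate mice. Age was not given in the sources used here.

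In textbook terms, homeostatic chemokines place cells within resting tissue and inflammatory ones recruit leukocytes after injury. CXCL12, made by stromal cells, signals through CXCR4 and is cleared by the decoy ACKR3. CXCL13 attracts B cells through CXCR5, and CCL21 leads dendritic cells and naive T cells through CCR7 into lymph vessels and nodes. CCL5 is made by activated T and NK cells and acts on CCR1 among other receptors, while CCL2 recruits CCR2-bearing monocytes and CXCL1 recruits CXCR2-bearing neutrophils. CXCL17 is a product of mucosal epithelium, and CCL6, known from mouse, is a product of myeloid cells that binds CCR1.

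After filtering, 2324 and 2112 te2 cells and 1638 and 2017 sham cells were kept, 8091 of 11245 in all. Each class was defined by the summed UMIs (unique molecular identifiers, 1 per captured transcript) of a few marker genes, in a fixed order. Luminal cells, the secretory epithelium, numbered 392 and 485 in te2 and 1057 and 1292 in sham. Basal cells numbered 591 and 573 in te2 and 44 and 160 in sham, and proximal cells, the epithelium defined by Krt4, Wfdc2 and Nxpe2, numbered 530 and 282 in te2 and 44 and 163 in sham. Fibroblasts numbered 86 and 132 in te2 and 237 and 98 in sham, and macrophages 103 and 78 in te2 and 56 and 57 in sham. The T/NK class held 27 and 35 te2 cells and 13 and 10 sham cells. A further 595 and 527 te2 cells and 187 and 237 sham cells met no rule and are called unassigned.

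The libraries differed in depth. The median was 3426.5 and 4075 UMIs per kept cell in te2, against 1203.5 and 1722 in sham, and both te2 libraries were deeper than both sham libraries in each of the 6 classes. Levels are therefore given as CPM, a gene's UMIs over all UMIs of its class in that library, on the usual CPM scale. Shares of cells with a UMI are also given after each cell was thinned to 500 UMIs. The classes carried their own marker lists, but luminal transcripts were found in every class. In fibroblasts the summed luminal markers stood at 4172 and 5273 CPM in te2 and 31680 and 37621 in sham. Only 7 cell barcodes occurred in more than 1 library, and 97 kept cells (1.20%) were called doublets and left in.

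The 8 genes had their highest levels in different cells. Cxcl17 was highest in proximal cells, Cxcl13 and Cxcl12 in fibroblasts, Ccl6 in macrophages and Ccl5 in T/NK cells, while most Ccl21a lay in unassigned cells. Cxcl1 and Ccl2 had 22 and 31 UMIs over all kept cells and passed the filter on low counts in no class. In a joint fit over classes, with the library as a block, a source class named for each gene was set against each of the other tested classes. Members and class rules were chosen with earlier results of these data known, so the contrasts give sizes and are no independent check of the sources. All 16 such contrasts for Cxcl17, Cxcl13, Cxcl12 and Ccl6 were positive and passed an adjusted p of 0.05 (edgeR quasi-likelihood test, Benjamini-Hochberg over 8875 genes). Passing was common between cell classes. In either direction, 24%, 28.5%, 41.4% and 37.4% of all genes passed for proximal cells over luminal cells, basal cells, fibroblasts and macrophages. For fibroblasts over luminal, basal, macrophage and proximal cells the shares were 51.5%, 28%, 30.9% and 41.4%, and for macrophages over luminal cells, basal cells, fibroblasts and proximal cells 44.6%, 31.3%, 30.9% and 37.4%. The sizes are given below.

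**Figure D1:**
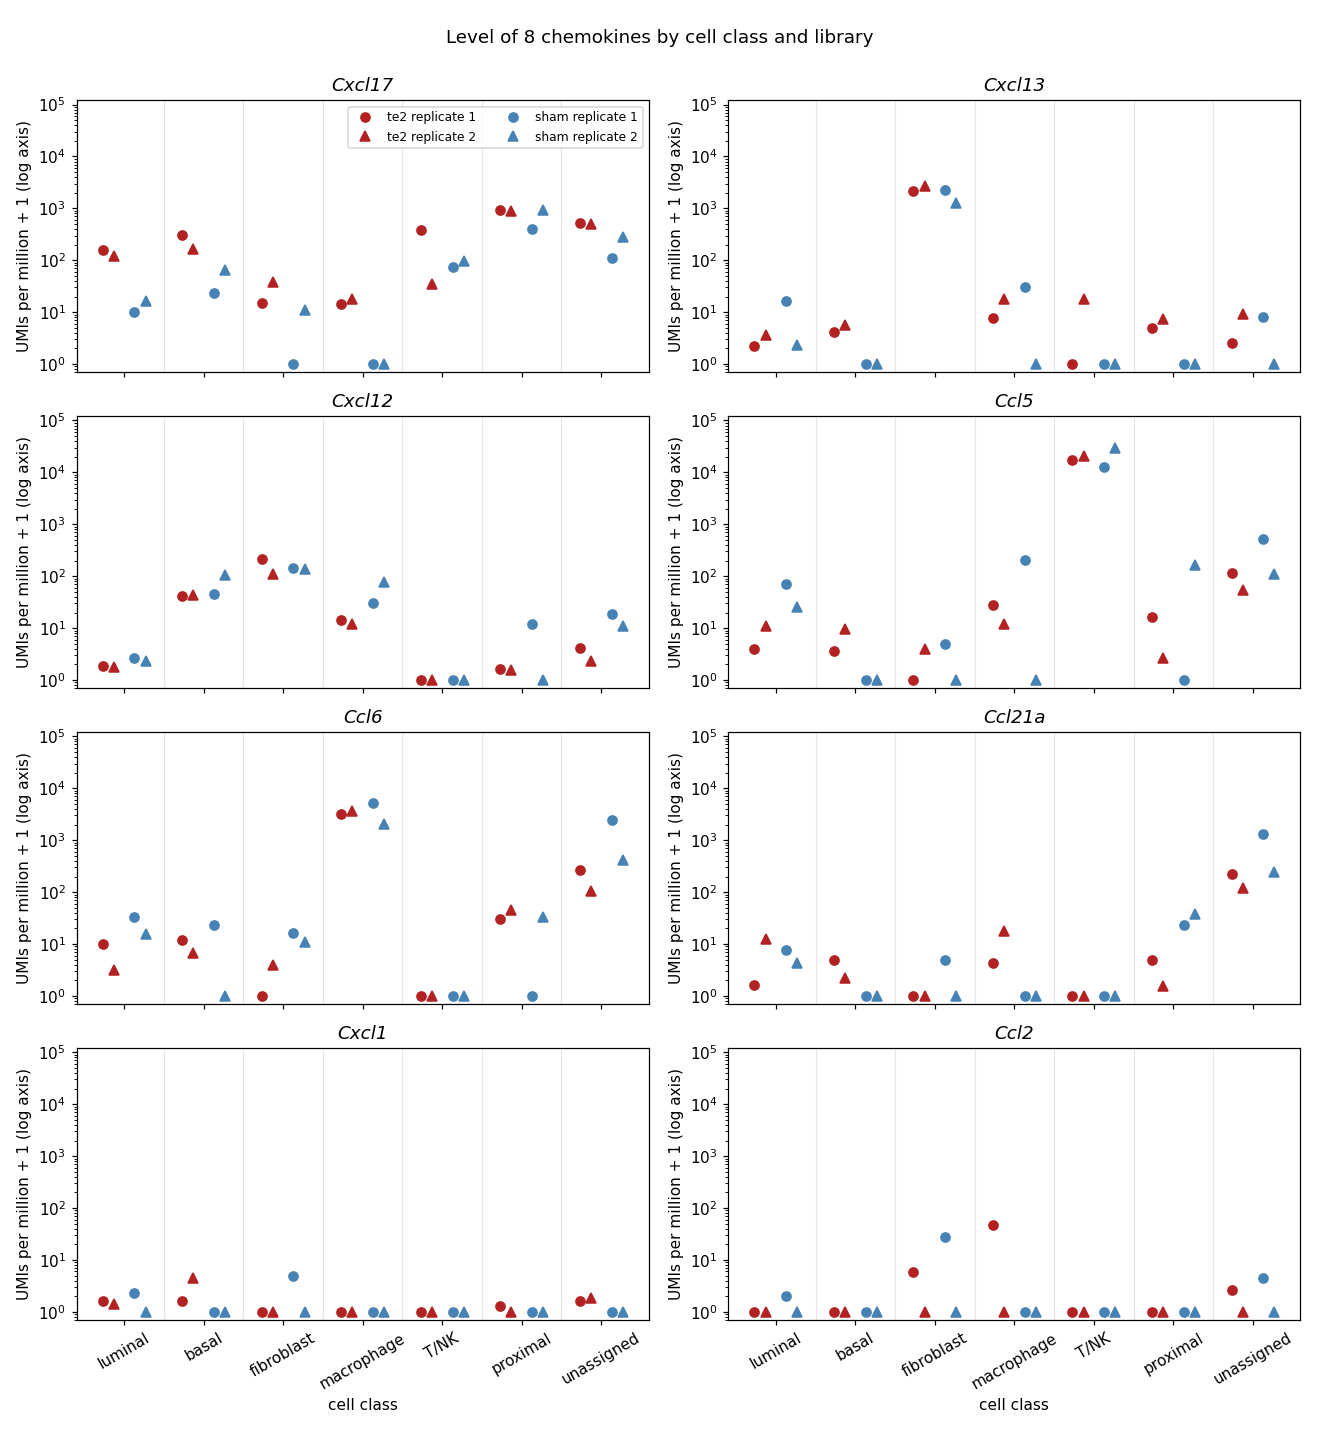
CPM of each chemokine within the class, plus 1, on a log axis (vertical), by cell class (horizontal), with 1 point per library, red for te2 and blue for sham, circles for replicate 1 and triangles for replicate 2. Cxcl17 is high in proximal cells of both groups and in luminal cells lies at 157 and 123 CPM in te2 against 9.08 and 15.4 in sham.

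**Figure D2:**
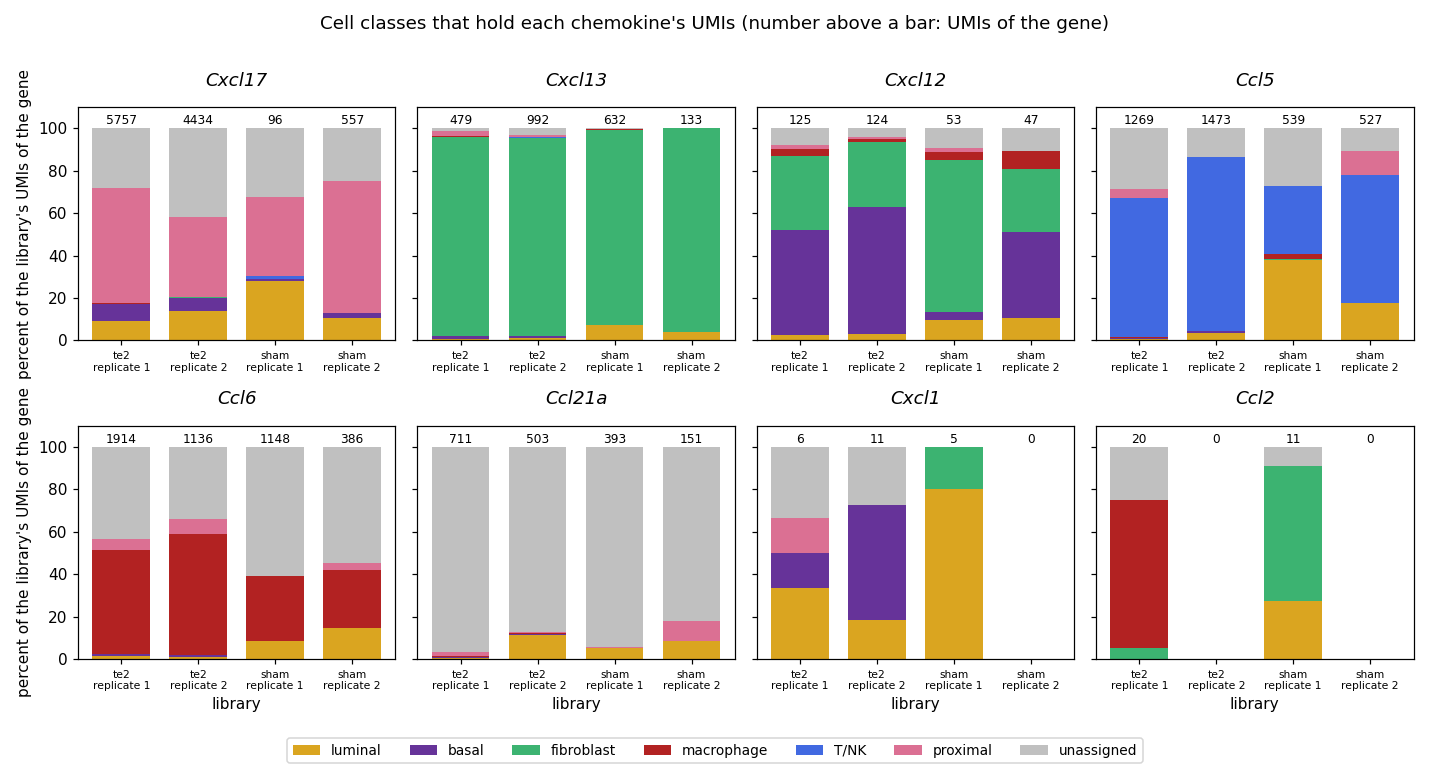
Percent of a library's UMIs of each chemokine (vertical) held by each cell class (colours), for the 4 libraries (horizontal), with the number of UMIs above each bar. Fibroblasts hold 92.2% to 96.2% of Cxcl13 in the 4 libraries, whereas unassigned cells hold 82.1% to 96.9% of Ccl21a.

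Cxcl17 had the most UMIs of the 8 in both te2 libraries and in sham replicate 2, but not in sham replicate 1, with 5757 and 4434 UMIs in the te2 libraries and 96 and 557 in the sham libraries. Over all kept cells this was 483 and 348 CPM in te2 and 25.7 and 110 in sham. Proximal cells had the highest level among the named classes, at 935 and 898 CPM in te2 and 404 and 918 in sham. The groups overlapped there, because sham replicate 2 lay between the te2 values. The level in proximal cells exceeded that in luminal cells by 3.58 ± 0.13 on the log2 scale (SE, n = 4 libraries) and that in basal cells by 3.02 ± 0.18.

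In luminal cells Cxcl17 stood at 157 and 123 CPM in te2, against 9.08 and 15.4 CPM in sham. Both te2 libraries were far above both sham libraries. Of the 8 chemokines, 4 passed the filter in luminal cells and 3 of these were called, beside 32.1% of all genes tested in that class, 18% higher and 14.1% lower. Cxcl17 rose, with a log2 change of 3.41 ± 0.20 (SE, 2 against 2 libraries, adjusted p = 8.03e-08, edgeR quasi-likelihood test). The change lay between 3.14 and 3.86 when each library was left out in turn, and past the threshold each time. An exact permutation test of 2 against 2 libraries cannot go below p = 0.333, so these p-values rest on a spread pooled over genes.

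The rise was seen in many cells. A Cxcl17 UMI was found in 37.5% (exact 95% interval 32.7% to 42.5%) and 32.0% (27.8% to 36.3%) of luminal te2 cells. In luminal sham cells the shares were 2.37% (1.54% to 3.47%) and 3.64% (2.68% to 4.81%). Intervals cover counting error only. Luminal cells had a median of 8265.5 and 10359 UMIs in te2 and 1551 and 2455 in sham. After thinning to 500 UMIs the shares were 7.91% and 7.42% in te2 and 0.284% and 1.16% in sham, so the te2 shares remained the higher at equal depth. Macrophages, which should lack Cxcl17, gave 2.91% and 3.85% in te2 at medians of 2088 and 1874 UMIs, and 0% in both sham libraries, where the intervals reach 6.38% and 6.27%. After thinning, no macrophage held a Cxcl17 UMI in any library. Other classes outside the epithelium held more. Before thinning, 4 of 62 te2 and 2 of 23 sham T/NK cells had a Cxcl17 UMI. Their mean level was 204 CPM in te2 and 83.2 in sham, from 20 and 2 UMIs. Among fibroblasts, 10 of 218 te2 cells and 1 of 335 sham cells had one. The 3 luminal cells richest in Cxcl17 held 9.60% and 12.03% of its luminal UMIs in te2.

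**Figure D3:**
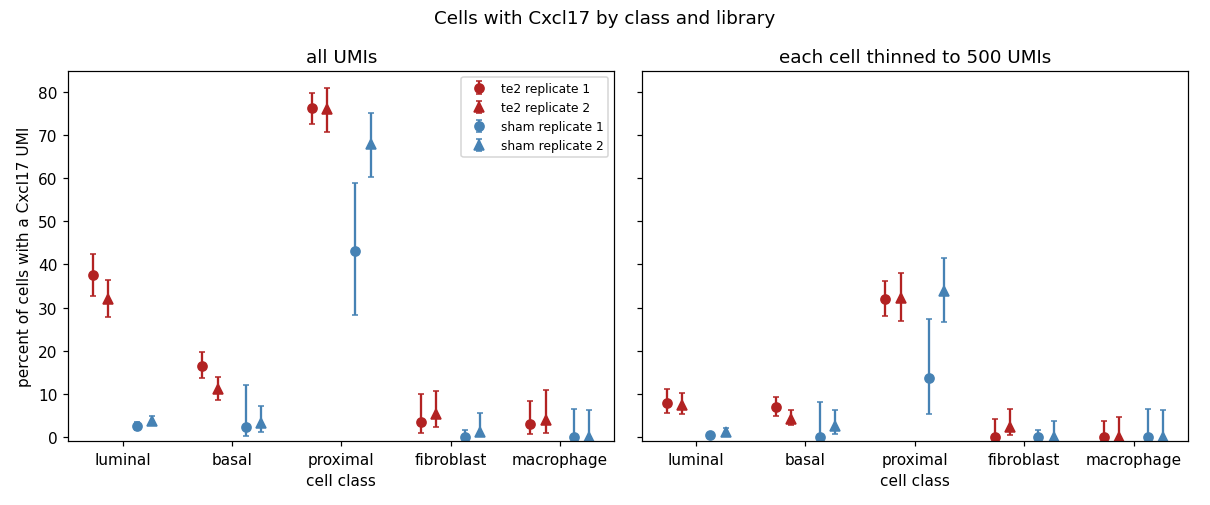
Percent of cells with a Cxcl17 UMI (vertical) by class (horizontal), with all UMIs at left and with each cell thinned to 500 UMIs at right. Points are libraries, red for te2 and blue for sham, with exact 95% binomial intervals. In luminal cells the thinned shares are 7.91% and 7.42% in te2 and 0.284% and 1.16% in sham, and in proximal cells 32.1% and 32.3% in te2 and 13.6% and 33.7% in sham.

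The luminal cells also differed in proximal markers. All 6 genes of that list, among them Krt4, Wfdc2 and Psca, were higher in both te2 libraries. Their summed level in luminal cells was 1131 and 954 CPM in te2 and 26.6 and 35.8 in sham, with Psca at 0 in both sham libraries. Their part in the Cxcl17 result was not tested. Without the luminal cells that also met the proximal rule, 8 and 10 cells in te2 and 8 and 25 in sham, Cxcl17 still stood at 149 and 115 CPM in te2 and 8.77 and 11.6 in sham. Within luminal cells, only Wfdc2, a secreted protease inhibitor, was at least 2-fold higher in cells with a Cxcl17 UMI in every library among genes with at least 20 UMIs in those cells. Summed over libraries it stood at 95.9 CPM in cells with the UMI and 18.8 in cells without.

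In basal cells Cxcl17 stood at 306 and 165 CPM in te2 and 22.1 and 65.5 in sham, and the groups did not overlap. The sham values rest on 1 and 12 UMIs in 44 and 160 cells. Cxcl17 rose there by the main test, with a log2 change of 2.09 ± 0.42 and an adjusted p of 0.000757 (edgeR). It was 1 of 2 members tested in basal cells, where 7.71% of all genes were called, 4.94% higher and 2.77% lower. The call was lost with DESeq2 (adjusted p = 0.053) and without sham replicate 1 (1.85, adjusted p = 0.0738) or sham replicate 2 (3.75, adjusted p = 0.119). It was also lost with doubled class thresholds, where the change was 0.56 (adjusted p = 0.690), and when cells meeting more than 1 class rule were left out, an alternative added after seeing the data (2.55, adjusted p = 0.0755).

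The basal cells with a Cxcl17 UMI differed from the other basal cells in their markers. They were picked by that UMI, so their values are a description. In te2 they numbered 97 of 591 and 63 of 573, and their summed proximal markers stood at 3918 and 3834 CPM, against 694 and 640 in the other basal cells. Their summed basal markers stood at 4492 and 5470 CPM, against 11628 and 14426 in the others. They carried more Psca, a surface antigen, at 742 CPM against 47.7, more Clu, a secreted chaperone, at 1038 against 122, and more Lgals3, a galectin, at 314 against 38.3, summed over libraries. Cells meeting more than 1 class rule made up 237 and 304 of the basal te2 cells and 16 and 38 of the basal sham cells. The whole basal class also differed in proximal markers, at 1644 and 1300 CPM in te2 and 66.2 and 557 in sham, with 5 of 6 higher in both te2 libraries, and the part of this in the result was not tested.

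In proximal cells Cxcl17 did not pass, with a log2 change of 0.32 ± 0.23 (adjusted p = 0.453, edgeR). Without sham replicate 2 it was 1.36 (adjusted p = 0.00831), and without sham replicate 1 it was -0.03, so the sham libraries set its value. A proximal cell carried a Cxcl17 UMI in 76.4% and 76.2% of te2 cells and 43.2% and 68.1% of sham cells. The te2 response of luminal cells exceeded that of proximal cells by 2.84 ± 0.26 on the log2 scale (edgeR, adjusted p = 2.84e-12 over all genes and 1.12e-13 over the 50 pairs of member and classes compared). In that contrast 3.73% of all genes passed. The response of basal cells exceeded that of proximal cells by 1.78 ± 0.44 (adjusted p = 0.0259 over all genes, beside 0.811% of genes called), a call lost without either sham library, without te2 replicate 1, and when cells meeting more than 1 class rule were left out (2.29, adjusted p = 0.461), an alternative added after seeing the data. Luminal and basal responses differed by 1.05 ± 0.56 (adjusted p = 0.484, beside 1.28% of genes called). Unassigned cells held 28.3% and 41.7% of Cxcl17 UMIs in te2 and 32.3% and 25.0% in sham.

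Cxcl13 was the chemokine most confined to 1 class by its counts. Fibroblasts held 93.9% and 93.2% of its UMIs in te2 and 92.2% and 96.2% in sham. Its level there was 2151 and 2692 CPM in te2 and 2242 and 1256 in sham, with overlapping groups. It exceeded the level in the other 4 tested classes by 7.34 to 11.42 on the log2 scale (edgeR joint fit, adjusted p of 8.65e-28 or less). The difference from basal cells rests on 13 basal te2 UMIs and none in basal sham cells. The log2 change in fibroblasts was 0.36 ± 0.27 (adjusted p = 0.510, edgeR).

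The response of Cxcl13 in luminal cells lay below that in fibroblasts, with a difference of -2.45 ± 0.50 on the log2 scale (adjusted p = 0.00150 over all genes, edgeR joint fit, beside 2.43% of genes called). It rests on few luminal UMIs, and Cxcl13 did not pass the filter in the luminal class by itself. Luminal cells held 4 and 13 UMIs in te2 and 45 and 5 in sham, at 1.20 and 2.63 CPM in te2 and 15.1 and 1.31 in sham, with overlapping groups. In sham replicate 1 a single cell held 24 of the 45. The call was lost without that library (-0.51, adjusted p = 0.888) and at a minimum of 1000 UMIs per cell (-0.998, adjusted p = 0.552). It was -3.92 with doubled class thresholds and -3.77 with called doublets left out, past the threshold both times.

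Most fibroblasts had no Cxcl13 UMI. It was found in 25.6% (16.8% to 36.1%) and 36.4% (28.2% to 45.2%) of te2 fibroblasts and 24.1% (18.8% to 30.01%) and 17.3% (10.4% to 26.3%) of sham fibroblasts. Luminal cells, at a greater depth, gave 0.765% and 0.619% in te2 and 0.946% and 0.387% in sham. The fibroblasts with the transcript held many copies, with 20.5 and 19.3 UMIs per such cell in te2 and 10.2 and 7.53 in sham. Fibroblast medians were 2375 and 2506.5 UMIs in te2 and 994 and 954 in sham. At this unequal depth, the higher te2 shares and copies do not show that more te2 fibroblasts expressed Cxcl13 or expressed more of it. The 3 richest cells held 45.8% and 30.5% of the fibroblast UMIs in te2 and 32.6% and 67.2% in sham. The receptor of CXCL13, Cxcr5, is not analysed here, and the summed B cell markers stayed at or below 88 CPM in all classes and in unassigned cells.

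Cxcl12 had 125 and 124 UMIs in te2 and 53 and 47 in sham, and it was highest in fibroblasts, followed by basal cells. In fibroblasts it stood at 210.3 and 111 CPM in te2 and 146 and 137 in sham, and in basal cells at 40.1 and 43.4 in te2 and 44.2 and 104 in sham. The groups overlapped in fibroblasts, and in basal cells both te2 values lay close to the lower sham value, which rests on 2 UMIs. The fibroblast level exceeded the basal level by 1.46 ± 0.27 on the log2 scale (adjusted p = 1.87e-05, edgeR) and the macrophage level by 2.61 ± 0.41 (adjusted p = 4.63e-07). Macrophage values were 13.4 and 11.2 CPM in te2 and 29.7 and 77.5 in sham, from 2 to 4 UMIs per library. The basal class also carried fibroblast markers, summed at 1632 and 2577 CPM in te2 and 2451 and 1615 in sham. In fibroblasts their sum was 31561 and 30786 CPM in te2 and 21569 and 19993 in sham. The part of fibroblast transcripts in the basal Cxcl12 values was not tested.

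Neither fibroblasts nor basal cells changed in Cxcl12 by the test. The log2 change of Cxcl12 was 0.02 ± 0.34 in fibroblasts (adjusted p = 0.989) and -1.08 ± 0.42 in basal cells (adjusted p = 0.108, edgeR). The basal value was 0.26 without sham replicate 2. The responses of basal cells and fibroblasts differed by -1.10 ± 0.57 (adjusted p = 0.611, beside 0.113% of genes called). Of the 2 members tested in fibroblasts, edgeR and DESeq2 called 0 and none had an unadjusted p under 0.05, beside 2.07% of all genes called, 0.764% higher and 1.3% lower. Basal cells held 49.6% and 59.7% of a library's Cxcl12 UMIs in te2 and 3.77% and 40.4% in sham, and they made up 25.4% and 27.1% of the kept cells in te2 and 2.69% and 7.93% of those in sham.

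The decoy receptor Ackr3 was highest in the fibroblasts too, at 143 and 175 CPM in te2 and 142 and 167 in sham. The signalling receptor Cxcr4 had few counts. Its highest levels were in macrophages, at 40.3 and 22.4 CPM in te2 and 44.5 and 0 in sham, from 12 and 4 UMIs in te2 and 3 and 0 in sham. Of the 553 fibroblasts, 144 held a Cxcl13 UMI and 87 a Cxcl12 UMI, and 38 held both, against 22.7 if the 2 were unrelated across cells. Depth per cell is shared by both counts.

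Among the 6 classes Ccl6 was highest in macrophages, but they did not hold all of it. Summed over libraries, macrophages held 1585 of its UMIs in te2 and 457 in sham, and unassigned cells held 1217 and 908. In macrophages it stood at 3149 and 3628 CPM in te2 and 5209 and 2053 in sham, with sham values on either side of the te2 values. The macrophage level exceeded that of the other 4 tested classes by 6.68 to 9.45 on the log2 scale (edgeR, adjusted p of 8.58e-34 or less). The log2 change in macrophages was -0.10 ± 0.42 (adjusted p = 0.937). It was the single member tested there, and edgeR and DESeq2 called 0, with none at an unadjusted p under 0.05, beside 3.68% of all genes, 1.93% higher and 1.75% lower. Leaving out sham replicate 1 gave 0.86 (adjusted p = 0.515).

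A Ccl6 UMI was found in 72.8% and 64.1% of te2 macrophages and 53.6% and 36.8% of sham macrophages. After thinning the shares were 46.6% and 48.7% in te2 and 50% and 33.3% in sham, so the order of the groups was no longer clear at equal depth. Before thinning, fibroblasts gave 0% and 0.758% in te2 and 1.27% and 1.02% in sham. Proximal cells gave more, with a Ccl6 UMI in 64 of 812 te2 cells and 9 of 207 sham cells. Macrophages with the UMI carried Retnla, a secreted product of alternatively activated macrophages, at 10435 CPM against 194 in those without, summed over libraries. Cd209f, a lectin, stood at 522 against 27.6 CPM and Fn1, the fibronectin gene, at 1081 against 76.0.

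Unassigned cells held 43.4% and 34.0% of Ccl6 UMIs in te2 and 60.7% and 54.7% in sham. Those with a Ccl6 UMI carried Retnla, Lyz2, a lysozyme of myeloid cells, and Ccr2, the receptor of CCL2, the last at 753 CPM against 3.79 in the other unassigned cells. In a split made after these values were seen, 35 and 24 unassigned te2 cells and 40 and 9 sham cells had at least 2 UMIs of the monocyte markers Ly6c2, Plac8, Chil3 and Ccr2. Ccl6 stood at 3336 and 1712 CPM in these te2 cells and 6915 and 7690.5 in these sham cells. Ccr1, a receptor of CCL6, was low and lay in macrophages, at 70.5 and 50.5 CPM in te2 and 119 and 116 in sham.

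In luminal cells Ccl6 fell by the main test. It stood at 9.02 and 2.22 CPM in te2 and 32.0 and 14.6 in sham, with no overlap. The log2 change was -2.21 ± 0.46 (adjusted p = 0.00257, edgeR), and DESeq2 gave an adjusted p of 0.142. Few cells set these values, namely 8 and 8 in te2 and 30 and 5 in sham, and 1 luminal cell of sham replicate 2 held 51 of its 56 UMIs. Leaving out te2 replicate 1 gave -3.36, te2 replicate 2 gave -1.43 and sham replicate 1 gave -1.54, past the threshold each time. With called doublets left out it was -3.39 (adjusted p = 8.32e-05). All 6 macrophage markers were lower in both te2 libraries in luminal cells, at a sum of 9.62 and 8.69 CPM in te2 and 35.3 and 18.0 in sham, and their part in the result was not tested. The luminal response lay below that of macrophages by 2.43 ± 0.41 on the log2 scale, given as -2.43 in luminal minus macrophage cells (adjusted p = 9.83e-05 over all genes, edgeR, beside 1.24% of genes called). Leaving out te2 replicate 1 gave -3.72, te2 replicate 2 gave -1.78 and called doublets gave -3.67, past the threshold each time.

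In proximal cells Ccl6 stood at 29.5 and 43.3 CPM in te2 and 0 and 31.9 in sham, with a log2 change of 0.45 ± 0.48 (adjusted p = 0.642, edgeR). The luminal response lay below the proximal one, with a difference of -2.50 ± 0.61 (adjusted p = 0.00858 over all genes), a call lost without sham replicate 1 (-1.71, adjusted p = 0.20) or te2 replicate 2 (-1.36, adjusted p = 0.536). Macrophage and proximal responses differed by -0.06 ± 0.59 (adjusted p = 1, beside 0.541% of genes called).

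Ccl5 marked the T/NK class, where 92.6% and 91.4% of te2 cells and 92.3% and 100% of sham cells had a UMI. The class did not hold all of it. Of 2742 Ccl5 UMIs in te2 and 1066 in sham, T/NK cells held 2038 and 491. Unassigned cells held 560 in te2 and 201 in sham, and luminal cells held 60 and 298. The Ccl5 level in T/NK cells was 17309 and 20484 CPM in te2 and 12495 and 29960.4 in sham. The sham values lay on either side of the te2 values. With 27 and 35 te2 cells and 13 and 10 sham cells, the class fell below the minimum of 20 cells per library, so it was fitted as an added test at 10 cells. The log2 change was -0.26 ± 0.52 (adjusted p = 0.859). EdgeR called 0 of 447 genes (0%), 63 had an unadjusted p under 0.05 and DESeq2 called 4, Ccl5 not among them. The level exceeded that of the other 5 classes by 7.95 to 13.90 on the log2 scale in the joint fit with this class added, where 23.9%, 15.8%, 20.8%, 11.3% and 19.7% of genes passed over luminal, basal, fibroblast, macrophage and proximal cells. Fibroblasts gave a share of 0% and 0.758% in te2 and 0.422% and 0% in sham. Among macrophages, 4 of 181 te2 cells and 5 of 113 sham cells had a Ccl5 UMI.

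In the epithelium the Ccl5 calls rested on few cells. In luminal cells it stood at 3.01 and 10.1 CPM in te2 and 68.97 and 24.3 in sham, and fell by the main test, with a log2 change of -2.73 ± 0.47 (adjusted p = 0.000552, edgeR; 0.0445 with DESeq2). A luminal Ccl5 UMI was found in 6 and 12 te2 cells and 14 and 4 sham cells, and the 3 richest cells held 89.3% and 98.9% of the luminal UMIs in sham. In each sham library 1 luminal cell also met the T/NK rule, with 44 and 68 UMIs, and without these cells the sham levels were 54.2 and 6.54 CPM, so that the groups overlapped. The call held without all cells meeting more than 1 rule (-2.09, adjusted p = 0.0230), without sham replicate 1 (-1.80) and without te2 replicate 2 (-4.01). Of the 6 T/NK markers 5 were lower in both te2 libraries in luminal cells, and Cd3g was at 0 in te2. Their sum stood at 29.8 and 30.3 CPM in te2 and 42.7 and 45.7 in sham, and their part in the result was not tested.

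In proximal cells Ccl5 stood at 15.3 and 1.61 CPM in te2 and 0 and 162 in sham. All 61 UMIs of sham replicate 2 were in 1 cell, and 40 of the 51 of te2 replicate 1 were in another. The log2 change of -3.62 ± 0.53 passed with edgeR (adjusted p = 1.63e-05) but not with DESeq2 (0.745), and without sham replicate 2 it was 7.12 (adjusted p = 0.689). Leaving out te2 replicate 1 gave -6.10 (0.107) and leaving out te2 replicate 2 gave -2.88 (0.241). Summed T/NK markers in proximal cells stood at 35.5 and 39.6 CPM in te2 and 44.9 and 47.9 in sham, with Cd3g, Nkg7 and Trbc2 at 0 in sham. Cells with 2 UMIs of Cd3g, Nkg7 and Trbc2 had gone to the T/NK class first, so low counts of these genes are partly set by the rule. The part of T/NK cells in the Ccl5 result was not tested. Of the 4 members tested in proximal cells 2 were called, both lower, beside 9.32% of all genes, 4.72% higher and 4.6% lower. The responses of luminal and proximal cells differed by 1.05 ± 0.69 (adjusted p = 0.526).

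Ccl21a was held by a handful of cells that the class rules do not name. Unassigned cells held 96.9% and 87.5% of its UMIs in te2 and 94.1% and 82.1% in sham. These UMIs came from 20 and 8 te2 cells and 17 and 5 sham cells. Over all unassigned cells the level was 218 and 121 CPM in te2 and 1303 and 245 in sham, and both te2 values lay below both sham values. No test was made on cells outside the 6 classes.

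The unassigned cells with a Ccl21a UMI carried markers of lymphatic endothelium (Lyve1, Prox1, Mmrn1, Flt4, Reln and Pdpn), summed at 4870 and 12232 CPM in te2 and 10771 and 5568 in sham. The other unassigned cells had 12.8 and 7.72 CPM in te2 and 104 and 70.0 in sham. In a split made after these values were seen, 21 and 10 unassigned te2 cells and 17 and 4 sham cells had at least 2 UMIs of Lyve1, Prox1, Mmrn1, Flt4 and Reln. Of these, 85.7% and 80.0% held Ccl21a in te2 and 88.2% and 100% in sham. Its level in them was 19601 and 8449 CPM in te2 and 19173 and 34377 in sham. The share of split cells with Ccl21a lay between 80.0% and 100% in these few cells, while their level and their number varied between libraries. The cut of 2 UMIs was applied at unequal depth. Median UMIs of the split cells were 1083 and 2118.5 in te2 and 805 and 632.5 in sham. The parts of cell number and of level per cell in the unassigned values were not tested.

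In proximal cells Ccl21a stood at 3.91 and 0.535 CPM in te2 and 22.5 and 37.3 in sham, with no overlap and a log2 change of -3.65 ± 0.64 (adjusted p = 0.000247, edgeR; 0.0116 with DESeq2). The sham values rest on 2 and 14 UMIs, of which 13 of the 14 were in 1 cell. The call was lost without sham replicate 2 (-2.90, adjusted p = 0.464), te2 replicate 1 (-5.57, 0.404) or te2 replicate 2 (-2.97, 0.607). Lymphatic markers in proximal cells stood at a sum of 7.52 and 5.89 CPM in te2 and 56.1 and 34.6 in sham, 3 of 6 lower in both te2 libraries and Prox1 at 0 in sham, and their part in the result was not tested.

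In luminal cells Ccl21a stood at 0.601 and 11.5 CPM in te2 and 6.73 and 3.40 in sham (log2 change 0.40 ± 0.69, adjusted p = 0.696, edgeR). The value was -3.06 without te2 replicate 2 (adjusted p = 0.0139) and 1.21 without te2 replicate 1 (adjusted p = 0.0133), so each te2 library decides its direction. The annotated transcript of Ccl21b is 99.5% identical to that of Ccl21a over its length (GENCODE M21), and how reads shared between copies were counted is not given in the sources used here, so Ccl21a values are uncertain in this respect. Ackr4, a scavenger of CCL21, lay in basal cells at 38.8 and 68.0 CPM in te2 and 177 and 126 in sham and fell there, with a log2 change of -1.31 ± 0.37 (adjusted p = 0.0185, edgeR). DESeq2 did not call it. Ccr7 had 12 UMIs, all in unassigned cells of te2 replicate 2.

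The inflammatory chemokines Cxcl1 and Ccl2 were near the limit of detection. Cxcl1 had 6 and 11 UMIs in te2 and 5 and 0 in sham, with at most 6 in any class of a library. Ccl2 had 20 and 0 UMIs in te2 and 11 and 0 in sham. Of the 20 in te2 replicate 1, 14 were in 7 macrophages, and of the 11 in sham replicate 1, 7 were in 3 fibroblasts. No difference in either gene was detectable at this depth. Over all kept cells a count of 3 corresponds to 0.252 and 0.235 CPM in te2 and 0.804 and 0.593 in sham. The CCL2 receptor Ccr2 stood at 292 and 589 CPM in te2 macrophages and 801 and 349 in sham macrophages. Cxcr2, the receptor of CXCL1, had UMIs in each of the 6 classes, though none in the T/NK cells of te2 replicate 1. It stood at 67.1 and 89.7 CPM in te2 macrophages and 29.7 and 136 in sham macrophages, and at 60.7 and 57.4 in te2 basal cells and 44.2 and 65.5 in sham basal cells. The neutrophil markers S100a8, S100a9 and Csf3r summed to 70.5 CPM or less in the 6 classes and to 169 or less in unassigned cells.

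**Figure D4:**
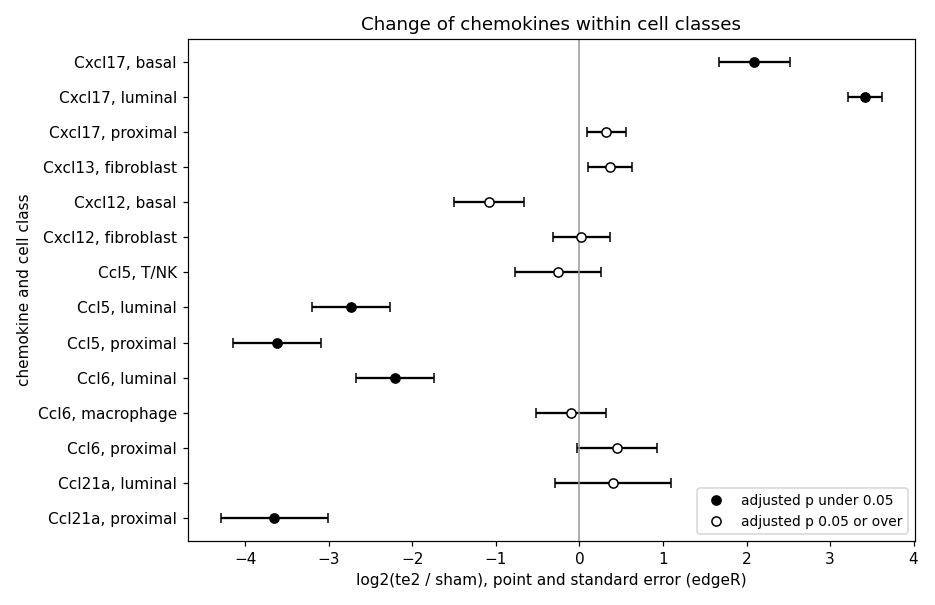
Log2 change between te2 and sham (horizontal) with its standard error for each chemokine and cell class tested (vertical), filled where the adjusted p is under 0.05. Cxcl17 lies to the right at 3.41 in luminal and 2.09 in basal cells, the filled points of Ccl5, Ccl6 and Ccl21a lie to the left, and the source classes of Cxcl13, Cxcl12, Ccl6 and Ccl5 lie near 0.

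In all, 13 pairs of member and class passed the filter in the 5 classes with enough cells, and 6 were called. Luminal cells gave 3 of the calls, basal cells 1 and proximal cells 2, beside 32.1%, 7.71% and 9.32% of all genes called. Fibroblasts and macrophages gave 0, beside 2.07% and 3.68% of all genes. No member was called in the class that served as its source in the joint fit. The joint fit compared responses for 5 members in all 10 pairs of the 5 classes, where 0.113% to 3.73% of all genes passed. Of these 50 differences 5 passed over all genes, namely Cxcl17 in luminal and in basal cells against proximal cells, Ccl6 in luminal cells against macrophages and against proximal cells, and Cxcl13 in luminal cells against fibroblasts. Another, Cxcl13 in luminal cells against proximal cells, passed over the 50 differences (adjusted p = 0.0451) but not over all genes (adjusted p = 0.103), and proximal sham cells held none of its UMIs. In 8 of the 50, the member had passed the filter in both classes taken singly, and 4 of those 8 passed.

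Other chemokine ligands were tested from a list of 32 genes. In luminal cells 7 passed the filter, 1 rose and 1 fell, beside 32.1% of all genes called. Ccl28, a mucosal chemokine of epithelium, rose there to 7.22 and 13.7 CPM in te2, against 1.35 and 0.523 in sham (log2 3.51 ± 0.55, adjusted p = 0.000282, edgeR). Cxcl2, a neutrophil attractant, fell by 1.44 on the log2 scale (adjusted p = 0.0476), a call DESeq2 did not make. The median change of the 7 was -0.40, against -0.01 over all luminal genes tested.

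In proximal cells 7 ligands passed, 2 rose and 1 fell, beside 9.32% of all genes called. Cxcl15, a chemokine of mouse mucosal epithelium, fell to 2.41 and 3.21 CPM in te2, against 67.4 and 71.9 in sham (log2 -4.68 ± 0.48, adjusted p = 2.67e-08, edgeR). Ccl28 had 38 and 53 UMIs in te2 and none in sham, at least 2.71-fold higher against a floor of 3 counts over both sham libraries (adjusted p = 0.0366). Ccl9, a myeloid chemokine of mouse, had 48 and 31 UMIs in te2 and none in sham, at least 2.36-fold higher on the same floor (adjusted p = 0.0261). DESeq2 called Cxcl15 and gave no adjusted p for Ccl28 and Ccl9. In macrophages 7 passed, 1 rose and none fell, beside 3.68% of all genes called. It was Ccl8, which attracts monocytes, at 970.3 and 903 CPM in te2 and 178 and 174 in sham (log2 2.42 ± 0.36, adjusted p = 0.00303, edgeR). In basal cells 5 and in fibroblasts 3 were tested, and edgeR and DESeq2 called 0, with 3 and 2 at an unadjusted p under 0.05, beside 7.71% and 2.07% of all genes called.

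Among chemokine receptors, Xcr1, the receptor of XCL1 on dendritic cells (log2 -1.24 ± 0.26), the fractalkine receptor Cx3cr1 (-1.55 ± 0.37) and Ccr2 (-2.63 ± 0.73) fell in luminal cells, with adjusted p from 0.00248 to 0.0137 (edgeR), in a class where 32.1% of all genes were called. DESeq2 called Xcr1 and Cx3cr1 but not Ccr2. Luminal levels of these receptors were low. In CPM scaled by TMM, Ccr2 stood at 2.03 and 0.203 in te2 and 9.78 and 3.17 in sham. Cx3cr1 stood at 4.07 and 2.84 in te2 and 12.2 and 7.93 in sham. Xcr1 stood at 6.39 and 8.12 in te2 and 19.2 and 15.9 in sham. All 6 macrophage markers were also lower in luminal te2 cells, and their part in these falls was not tested. In basal cells, where 7.71% of all genes were called, Ackr4 fell, as given above. In macrophages 5 receptors were tested and 1 fell, beside 3.68% of all genes called. It was Cx3cr1, at 107 and 213 CPM in te2 and 534 and 1355 in sham (log2 -2.57 ± 0.45, adjusted p = 0.00791, edgeR). In proximal cells edgeR and DESeq2 called 0 of 5, with none at an unadjusted p under 0.05, and in fibroblasts 0 of 2, likewise with none, beside 9.32% and 2.07% of all genes called.

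A list of 27 genes of NF-kB feedback and inflammatory cytokines, which are induced along with inflammatory chemokines, had 14 tested in luminal cells, of which 4 rose and 2 fell. Of all genes tested, 32.1% were called in luminal cells, 7.71% in basal, 9.32% in proximal, 2.07% in fibroblasts and 3.68% in macrophages. Sod2, a mitochondrial superoxide dismutase (log2 1.44 ± 0.17, adjusted p = 3.35e-05), and Nfkbia, the inhibitor of NF-kB (1.05 ± 0.18, adjusted p = 0.000593), rose, as did Bcl3 (1.79 ± 0.52), while Csf1, a macrophage growth factor, fell (-2.45 ± 0.65). In basal cells 2 of 13 rose, Il33, an alarmin (1.63 ± 0.39), and Nfkbia (1.26 ± 0.36), and Csf1 fell (-2.63 ± 0.58). In proximal cells 1 of 13 rose, Sod2 (1.18 ± 0.23), and Icam1, an adhesion molecule, fell (-1.29 ± 0.41). In fibroblasts 0 of 8 and in macrophages 0 of 4 were called by edgeR and DESeq2, with 0 and 2 at an unadjusted p under 0.05. DESeq2 called 2, 1 and 1 genes of this list in luminal, basal and proximal cells.

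Immediate early genes, which dissociation can induce, gave 4 rising and 1 falling of 12 tested in luminal cells, beside 32.1% of all genes called. Ier2 (log2 0.73 ± 0.17), Ier3 (1.39 ± 0.42), Klf4 (0.73 ± 0.22) and Jund (0.38 ± 0.13) rose, and Jun (-0.66 ± 0.23) fell. In basal cells 1 of 11 rose, Jund (1.15 ± 0.34), and 1 fell, Egr1 (-1.69 ± 0.50), beside 7.71% of all genes called. In proximal cells 1 of 11 rose, Jund (1.10 ± 0.23), and in fibroblasts 1 of 9, Jund (1.16 ± 0.23), while in macrophages edgeR and DESeq2 called 0 of 6, with 3 at an unadjusted p under 0.05. The shares of all genes called were 9.32% in proximal cells, 2.07% in fibroblasts and 3.68% in macrophages. DESeq2 called 1 gene of this list in luminal cells (Ier2), 0 in basal and in proximal cells and 1 in fibroblasts (Jund). Their part in the chemokine values was not tested.

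Across the 28 sums of 7 cell sets and 4 libraries, the genes most like each member in log2(CPM + 10) were listed. For Cxcl17 they were Cox14 (Pearson r = 0.91), Epcam, an epithelial adhesion molecule (0.89), and Gsta4 (0.89), none of them on the proximal marker list. For Cxcl13 they were Col1a2, a collagen that also defines the fibroblast class (0.98), Htra3 (0.98) and Dpep1 (0.98), and for Cxcl12 Tpst1 (0.98), Axl (0.94) and Pdlim7 (0.92). For Ccl5 they included Cd244a (0.94) and Gimap4 (0.94), and for Ccl6 they were Alox5ap (0.98), H2-Ab1 (0.97) and Cfp (0.97), and for Ccl21a Mmrn1 (0.92), Cldn5 (0.89) and Prox1 (0.87). The 28 points share libraries and depth, so these values describe and carry no test. Cxcl1 and Ccl2 had under 50 UMIs and were left out.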

How the data were processed

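Single-cell 3' libraries (Chromium v3.1) of the ventral prostate were made from 2 te2 and 2 sham mice, and each deposited table holds counts of UMIs per gene and cell. The submitters' processing notes name kallisto 0.46.1, bustools 0.39.4, R 4.3.2, Seurat 5.0.1 and the build GRCm39, with no roles given. Total UMIs in the tables were 12259610 and 13134017 in te2 and 3999690 and 5513275 in sham, and this depth limits precision in sham.

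Cells with at least 500 UMIs and at most 20% mitochondrial UMIs were kept and put in classes in this order: luminal (Sbp and Spink1, at least 10% of UMIs), basal (Krt5, Krt14 and Krt15, 0.2%), fibroblast (Col1a2, Col3a1 and Dcn, 0.3%), macrophage (C1qa, C1qb and C1qc, 0.3%), T/NK (Cd3g, Trbc2 and Nkg7, 2 UMIs) and proximal (Krt4, Wfdc2 and Nxpe2, 0.1%). For each class, the counts of a library's cells were added up and tested with edgeR 4.0.16 (TMM, quasi-likelihood test, Benjamini-Hochberg over all genes tested in the class), under R 4.3.3, with DESeq2 1.42.0 as an alternative. Fits were tested on simulated data. Python 3.11.15, scanpy 1.11.5 and scipy 1.17.1 were used for sums, doublet calls and exact binomial intervals.

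The 8 members are all named. Genes from the other lists are named where they passed the adjusted p, and receptors beside their ligand. The members, lists, markers and class rules were chosen with earlier results of these data known. Replicate numbers were not used to pair the animals in the main tests. Alternatives are the scaling, the filter on low counts, each library left out, the class thresholds, the UMI minimum, doublets, a replicate block and thinned sums. A few genes that the rules would name are not reported here.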

Additional observations from a re-analysis of the deposited data

Results flagged for a closer look

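Between classes, 5 of 50 responses to te2 differed in the joint fit, by a test of the difference itself (edgeR quasi-likelihood test, library as a block). In these contrasts 0.113% to 3.73% of all genes passed. The log2 change of Cxcl17 in luminal cells exceeded that in proximal cells by 2.84, and it passed under each alternative in which both classes could be fitted. That of Cxcl17 in basal cells exceeded the one in proximal cells by 1.78, with the losses of the call given above. The change of Ccl6 in luminal cells minus that in macrophages was -2.43, and in luminal cells minus proximal cells it was -2.50. The change of Cxcl13 in luminal cells minus that in fibroblasts was -2.45, and it was not past the threshold without sham replicate 1 or at a minimum of 1000 UMIs per cell. The Ccl6 and Cxcl13 values in luminal cells rest on few cells, as given above. With 2 libraries in each group, no single library could be checked as standing apart from its group.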

How the results depend on the processing

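The numbers of genes called moved by over 1.5 times under some settings. In luminal cells (3520) DESeq2 called 1853. In basal cells (704) DESeq2 called 153, doubled thresholds 414, leaving out cells of more than 1 rule 449 (added after seeing the data) and thinned sums 156. In fibroblasts (92) no filter gave 249 and at least 1000 UMIs per cell 56. In macrophages (80) DESeq2 called 34, no filter 183 and thinned sums 33. In proximal cells (877) DESeq2 called 237 and thinned sums 186. In T/NK cells (0) DESeq2 called 4, totals alone 1, no filter 36, doublets left out 12 and thinned sums 12. Leaving out each library gave 2498 to 3235 calls in luminal cells, 145 to 369 in basal cells, 107 to 211 in fibroblasts, 53 to 154 in macrophages, 1 to 17 in T/NK cells and 25 to 456 in proximal cells. Of the 50 differences between classes 5 passed; 2 to 6 passed when each library was left out, 3 of 30 with doubled thresholds and 2 of 15 at 1000 UMIs. Of the 16 source contrasts 9 passed with doubled thresholds and 6 at 1000 UMIs, since fewer classes could be fitted.

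Signs turned as follows. When each library was left out, the log2 change ran from -0.032 to 1.36 for Cxcl17 in proximal cells, -1.30 to 0.26 for Cxcl12 in basal cells, -0.41 to 0.50 for Cxcl12 in fibroblasts, -0.68 to 0.61 for Ccl5 in T/NK cells, -6.10 to 7.12 for Ccl5 in proximal cells, -0.51 to 0.86 for Ccl6 in macrophages and -3.06 to 1.21 for Ccl21a in luminal cells. Differences between classes ran from -9.93 to 4.24 for Ccl5 (luminal, proximal), -8.63 to 1.07 for Ccl6 (macrophage, proximal) and -1.58 to 0.18 for Cxcl12 (basal, fibroblast). Cxcl12 in fibroblasts was -0.0011 with doubled thresholds, -0.045 at 1000 UMIs and -0.092 with thinned sums. Without the filter Ccl5 in T/NK cells was 0.53 and Ccl6 in macrophages 0.24. The Ccl6 difference (macrophage, proximal) was 0.15 with T/NK added, 0.15 without the filter and 0.34 without doublets. The cause was not tested.

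With the replicate block, 3432 genes were called in luminal cells, 442 in basal cells, 86 in fibroblasts, 26 in macrophages, 0 in T/NK cells and 676 in proximal cells, and Ccl6 in macrophages was 0.042. Deviations of same-numbered libraries correlated at -0.0512 to 0.0169. Counting noise in the shallow sham sums can hide a shared deviation, so these values do not settle whether the numbers pair the mice. Doubled thresholds (T/NK, proximal), 1000 UMIs (basal, macrophage, T/NK) and leaving out cells of more than 1 rule (T/NK) were not run for want of cells.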
